A study of Rattus norvegicus with 12 samples.

Results

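The comparison described here set the late stage of a chemical carcinogenesis time course in the rat esophagus against its controls: the 3 arrays titled as NMBA week 29 against the 3 arrays titled as control, 6 of the 12 arrays of the series, across 31042 probe sets once the 57 array control probe sets were set aside. NMBA (N-nitrosomethylbenzylamine) is a nitrosamine that targets the rat esophagus. It was given subcutaneously at 0.3 mg/kg in 0.2 ml, 3 times a week for 5 weeks, and tissue was taken at week 6, 15 or 29, so the week 29 tissue was taken long after the last injection. Control rats received the solvent, DMSO in water, and neither the week at which their tissue was taken nor the strain or the animals' age is stated in the sources used here. Rats were housed 3 per cage, and RNA came from a part of the esophagus from which the submucosal and muscle layers had been removed. Whether the arrays stand for different animals is not said in the labels, and p-values therefore reflect only how far these samples spread, which may be technical.

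The esophagus is lined by a stratified squamous epithelium: basal cells, attached through hemidesmosomes, divide and carry keratins 5 and 14, and their daughters switch to keratins 4 and 13 and then to the small proline-rich proteins and transglutaminases of the cornified envelope. NMBA is activated by cytochrome P450 enzymes to a methylating agent, and the DNA adducts it leaves are followed by hyperplasia, dysplasia and papilloma in the rat. Late lesions of this kind are commonly described by hyperproliferation, by stress keratins, and by inflammatory and vascular changes, so these genes are reported by role below, with those of the other cell types that the tissue could hold.

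All values are log2 probe set signals as the authors deposited them, and a difference is week 29 minus control on that scale. One probe set, the brightest, stood for each of 14217 genes. The squamous keratins gave signals near the top of the table's range of 2.49 to 14.71 in every array, with Krt5 at 13.17 to 13.33 in the controls and 12.37 to 13.11 at week 29. Several skeletal muscle markers were near the top of that range too, in spite of the removal of the muscle layer: Acta1, skeletal actin, lay at 14.63, 14.71 and 14.65 in the controls and 14.71, 14.68 and 14.70 at week 29, and the difference of 0.03 was not called (adjusted p = 0.879). Acta1 in week 29 sample 1 was the highest value of the table, so a rise may not show in it. The markers Ckm, Tnnt3, Myh1 and Myh2 differed by 0.18, 0.38, 0.05 and -0.10, and none was called. The mean of the fast-twitch and slow-twitch muscle lists, called the muscle score here, was 11.072, 11.432 and 11.5 in the controls and 11.526, 11.75 and 11.679 at week 29, so the week 29 arrays all lay above the controls. The 3'-minus-5' value of the GAPDH control probe sets, a measure of RNA integrity and labelling, was 0.5309, 0.2152 and 0.4467 in the controls and 0.1256, 0.2147 and 0.1711 at week 29, with every week 29 array below every control. Leukocyte and adipocyte markers were dim, with Ptprc between 5.79 and 6.16 and Adipoq between 4.00 and 4.80 in the 6 arrays. Pairs of week 29 arrays correlated at r = 0.9908 to 0.995 over all 31042 probe sets. In bulk tissue, fewer cells of a type and less RNA per cell cannot be told apart, which holds for every result below.

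At week 29, 2737 of 14217 genes were called at an adjusted p under 0.05 (limma, Benjamini-Hochberg adjustment over all 31042 probe sets), and the large changes were mostly falls. The called genes were 1200 higher, 8.44% of all genes, and 1537 lower, 10.8% of all genes. Over probe sets, 2397 (7.72%) were higher and 2308 (7.44%) lower. The higher share of called probe sets was 50.9%, and 60.6% when each array's median was subtracted first. Of the called genes, 192 fell and 94 rose by at least 2-fold, and 11 fell and 0 rose by at least 4-fold. The 3 week 29 values lay entirely below the 3 controls in 1475 of the genes called lower and entirely above them in 1188 of those called higher. The 15 largest rises and 15 largest falls named below were picked among these genes, so lack of overlap in them was a condition of naming. In other called genes it was the common case, and it adds no support to a call. The median difference of all genes was 0.01, so the lists below are read against a centre near 0. Their counts are read against the shares of all genes, 8.44% higher and 10.8% lower.

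The number of calls depended on single arrays and on adjustment for the GAPDH value. It was 689 probe sets without control 1, 976 without control 3, 769 without week 29 sample 2 and 274 without week 29 sample 3, against 4425 without control 2, 6120 without week 29 sample 1 and 4705 with all arrays. Adjusted for the muscle score the fit called 2608 probe sets, and adjusted for the GAPDH value 132. The muscle score and the GAPDH value each separated week 29 from the controls completely, so these fits cannot tell them from the groups. The part of RNA quality in the differences was not tested. A set of 152 genes was called with all arrays and in each of the 6 fits that left out 1 array: 123 were lower and 29 higher, and 52 of the lower but 6 of the higher ones differed by 2-fold or more. These are called the array-robust genes below.

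**Figure D1:**
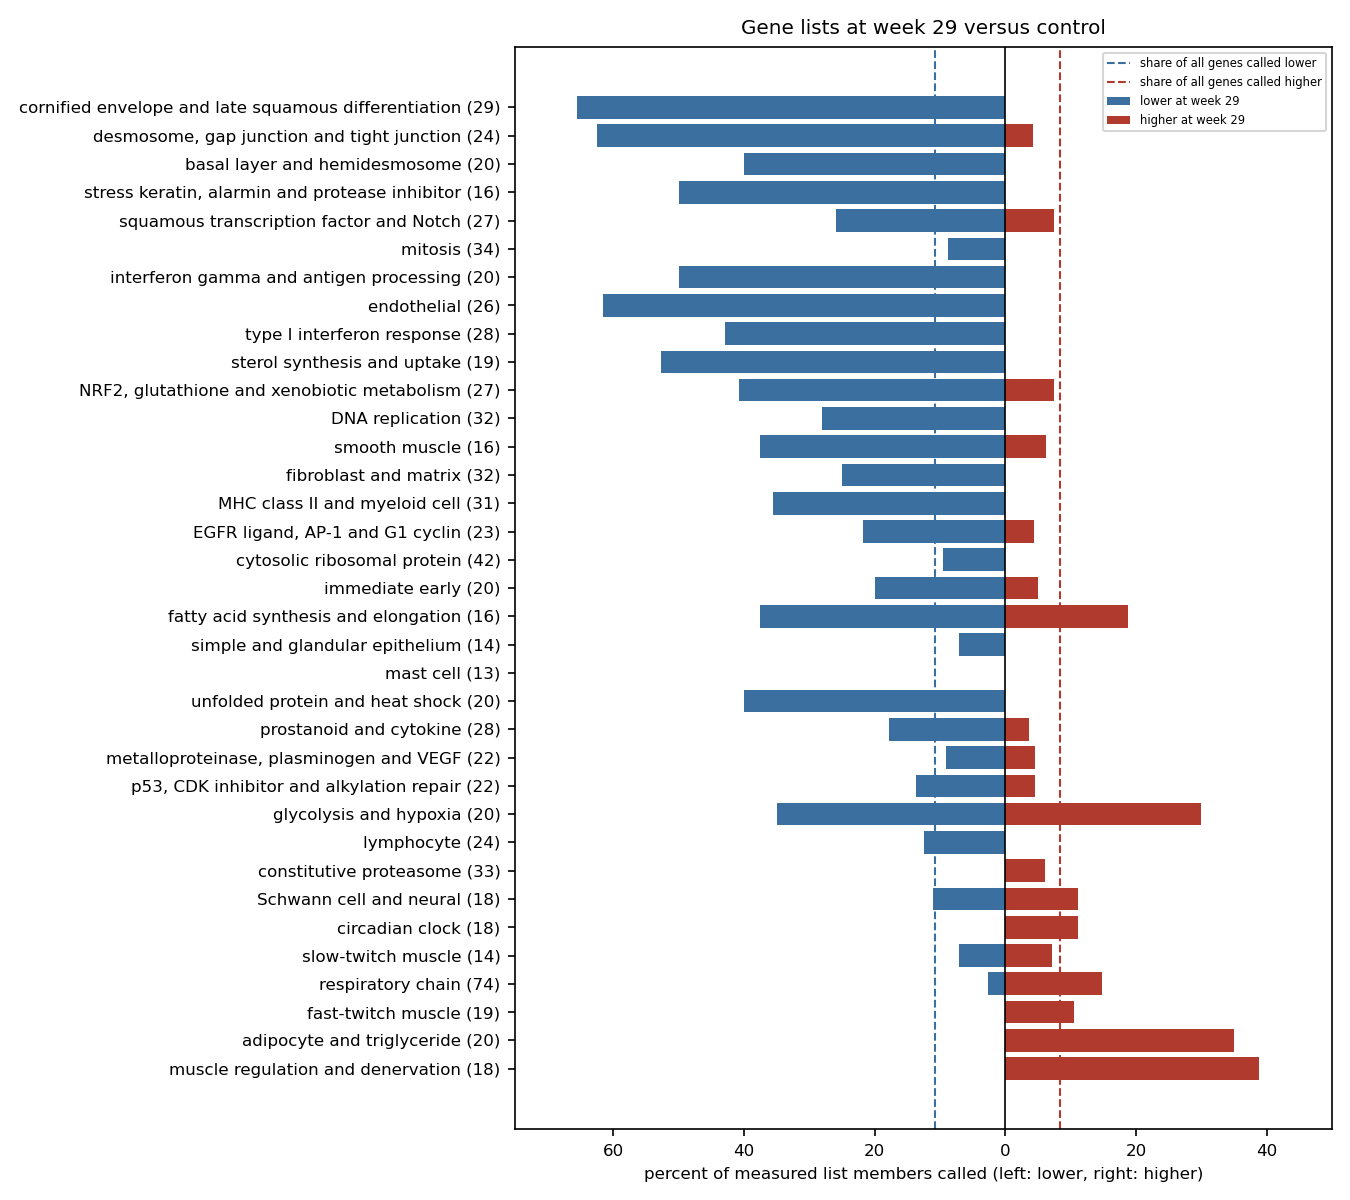
Percent of the measured members of each of 35 gene lists that were called lower (bars to the left) or higher (bars to the right) at week 29 versus control, with the number of measured members in brackets; the dashed lines mark the shares of all genes, 10.8% lower and 8.44% higher. Squamous, endothelial, sterol and interferon lists reach far to the left of the line, and muscle regulation and triglyceride lists to the right.

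Genes of the cornified envelope and of late squamous differentiation gave the largest falls. Of 29 measured members 19 were called lower and 0 higher, and the median difference was -1.17 against 0.01 over all genes. Sprr3, which encodes a small proline-rich protein that is cross-linked into the envelope, lay at 10.32, 10.28 and 9.37 in the controls and 7.30, 7.50 and 7.12 at week 29, a difference of -2.68 ± 0.44 (log2 difference ± SE, adjusted p = 0.0083). Its relative Sprr1b measured 9.62, 8.52 and 9.14 in the control samples and 6.63, 6.53 and 6.28 in the week 29 samples, a difference of -2.61 ± 0.32 (adjusted p = 0.00323). In both genes the groups were far apart, with the highest week 29 value more than 1 log2 unit below the lowest control. Sprr1a was at 11.46, 11.85 and 10.31 in the controls against 8.98, 8.77 and 8.01 at week 29, -2.62 ± 0.48 (adjusted p = 0.0109), with control 3 the lowest of the controls and week 29 sample 3 the lowest of all. Tgm1, the transglutaminase that does the cross-linking, lay at 8.50, 8.65 and 8.14 in the controls and 6.57, 6.29 and 6.18 at week 29, -2.09 ± 0.32 (adjusted p = 0.00694). Cnfn, cornifelin, measured 10.49, 10.81 and 9.61 in the control samples and 7.92, 7.87 and 8.18 in the week 29 samples, -2.32 ± 0.50 (adjusted p = 0.0164). Sprr2d, another small proline-rich protein, differed by -1.67 (adjusted p = 0.00984).

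The count for the cornified list was 9, 20 and 11 without controls 1, 2 and 3, and 20, 9 and 5 without week 29 samples 1, 2 and 3. The 5 array-robust members were Sprr1b, Sprr3, Tgm1, Klk8, a kallikrein protease of shedding keratinocytes, and Spink5, an inhibitor of such proteases. Adjusted for the muscle score 18 members were called lower, and adjusted for the GAPDH value 10. The list score lay below every control in each of the 3 week 29 samples, with medians over members of -1.03, -1.23 and -1.41 from the control mean.

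Stress keratins, alarmins and protease inhibitors, which rise in wounded and hyperproliferative squamous epithelium, also held lower calls. Of 16 measured members 8 were called lower and 0 higher, with a median of -0.57. Stfa3, a stefin that inhibits cysteine proteases, showed the largest fall of all genes the naming rule covered: it was at 12.44, 12.03 and 11.41 in the controls against 8.69, 9.53 and 8.76 at week 29, -2.97 ± 0.43 (adjusted p = 0.00596). Krt6c, a keratin of the K6 family, lay at 11.82, 12.72 and 11.94 in the controls and 10.30, 9.98 and 7.55 at week 29, -2.88 ± 0.54 (adjusted p = 0.0111). All 3 week 29 values were below the controls in both genes, which the naming rule required. Krt6c was over 2 log2 units lower in sample 3 than in the other week 29 samples. Krt17 measured 8.43, 10.28 and 8.06 in the control samples and 8.41, 6.52 and 6.31 in the week 29 samples, -1.84 ± 0.57 (adjusted p = 0.0474), and here week 29 sample 1 was within the control range. Serpinb2, an inhibitor of plasminogen activators, was at 9.67, 9.79 and 9.65 in the controls against 8.64, 8.47 and 7.52 at week 29, -1.49 ± 0.31 (adjusted p = 0.0146). Serpinb12, another serpin, lay at 9.92, 8.06 and 9.45 in the controls and 7.26, 7.0 and 7.47 at week 29, -1.90 ± 0.54 (adjusted p = 0.0377), and Defb4, a beta-defensin, differed by -1.34 (adjusted p = 0.0172). Stfa3 and Krt6c were array-robust, and the count of 8 became 2, 6 and 3 without controls 1, 2 and 3, and 6, 3 and 2 without week 29 samples 1, 2 and 3.

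**Figure D2:**
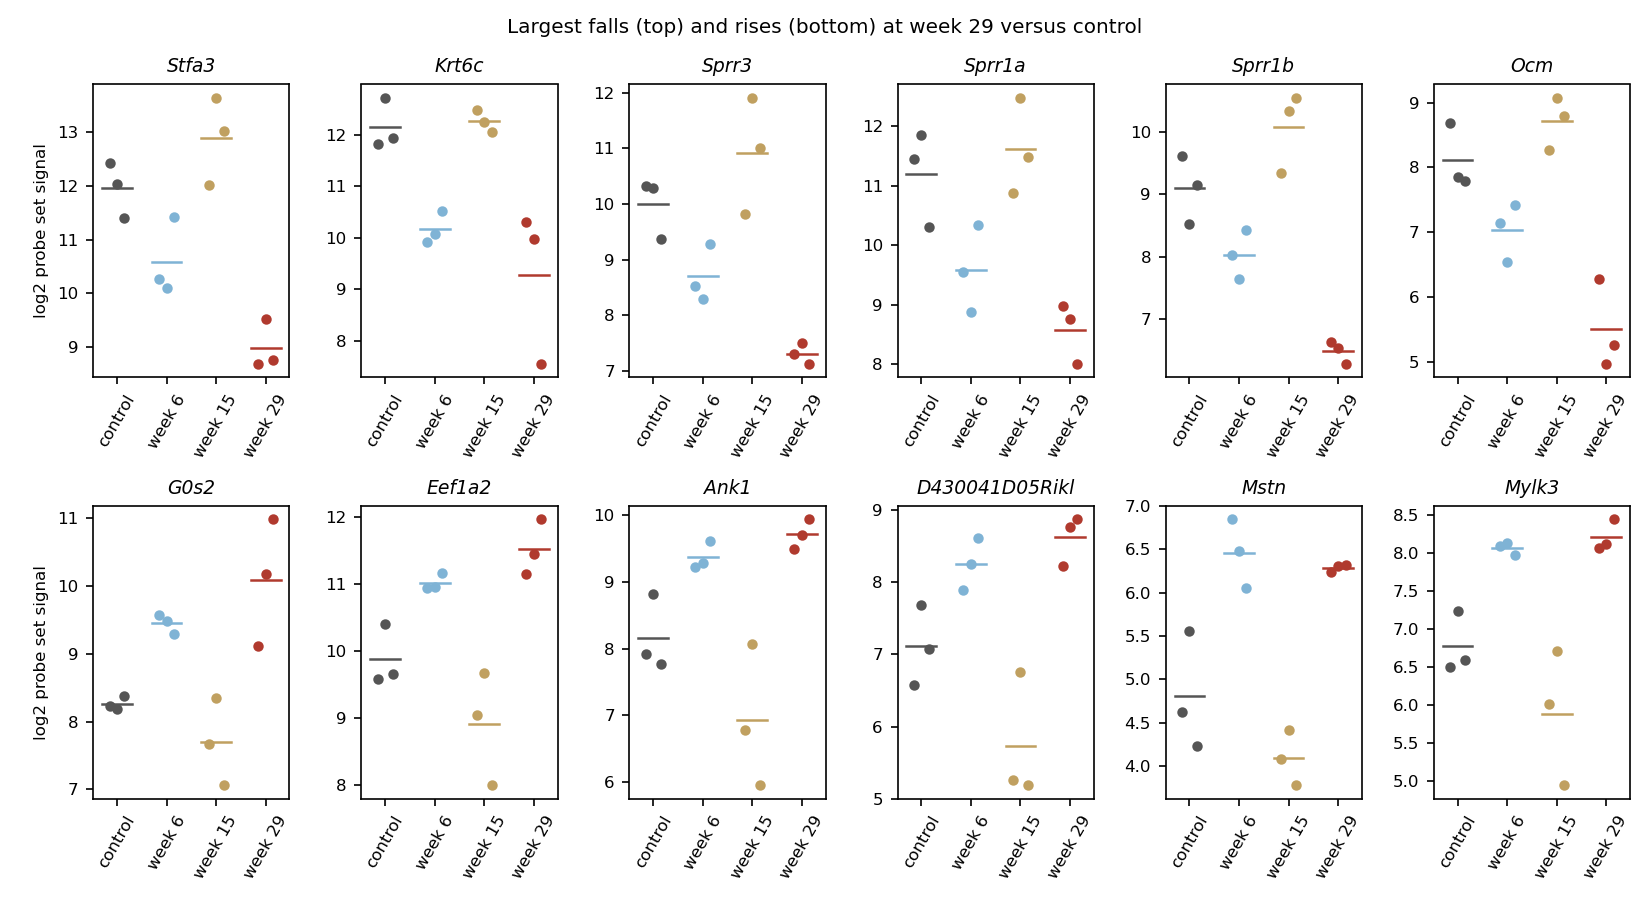
Log2 probe set signal of the 6 largest falls (upper row) and the 6 largest rises (lower row) at week 29 versus control, in each of the 3 samples (points, samples 1 to 3 from left to right) and the mean (line) of all 4 groups. The week 29 points lie clear of the control points in all 12 genes, which the naming rule required, and the week 6 means lie between or near them.

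Lower calls were frequent among cell junction genes. Among 24 measured genes of desmosomes, gap junctions and tight junctions, 15 were called lower and 1, the plakophilin gene Pkp2, higher by 0.92, with a median of -0.76. Gjb2, a connexin, measured 8.24, 8.92 and 7.81 in the control samples and 5.48, 6.83 and 5.92 in the week 29 samples, -2.25 ± 0.51 (adjusted p = 0.018). Gja1, another connexin, was at 13.32, 12.94 and 13.04 in the controls against 12.54, 11.89 and 11.68 at week 29, -1.06 ± 0.18 (adjusted p = 0.00918). Connexins form the channels of gap junctions. The groups overlapped in neither gene, as in 1475 of the 1537 genes called lower, and for Gjb2 the naming rule required it. Dsp, desmoplakin, which ties desmosomes to keratin filaments, lay at 13.17, 12.60 and 13.01 in the controls and 12.57, 11.65 and 11.52 at week 29, -1.01 ± 0.25 (adjusted p = 0.0225). Cldn4, a tight junction claudin, measured 8.49, 9.70 and 7.98 in the control samples and 7.61, 7.06 and 6.50 in the week 29 samples, -1.67 ± 0.38 (adjusted p = 0.0193). Dsg2, a desmosomal cadherin, and Gjb6, a further connexin, differed by -1.05 and -1.62. Gjb6 was called in none of the 6 fits that left out 1 array. Gja1 was the array-robust member of the list, and the count of lower members was 2, 13 and 6 without controls 1, 2 and 3, and 14, 3 and 1 without week 29 samples 1, 2 and 3. No member was called higher without control 1, control 3, week 29 sample 2 or week 29 sample 3.

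Part of the basal keratinocyte genes fell too. In the basal layer and hemidesmosome list 8 of 20 members were called lower and 0 higher, with a median of -0.58. Krt14, the keratin of dividing basal cells, was at 13.82, 13.66 and 13.61 in the controls against 13.17, 12.29 and 11.94 at week 29, -1.23 ± 0.23 (adjusted p = 0.0115). Krt5, its partner, lay at 13.27, 13.33 and 13.17 in the controls and 13.11, 12.49 and 12.37 at week 29, -0.60 ± 0.16 (adjusted p = 0.0311). The hemidesmosomal integrins moved alike: Itga6, the alpha subunit, measured 11.82, 11.79 and 11.41 in the control samples and 11.37, 10.51 and 10.28 in the week 29 samples, -0.95 ± 0.26 (adjusted p = 0.0323), and Itgb4, the beta subunit, differed by -0.66 (adjusted p = 0.0223). In each of these genes week 29 sample 1 was the nearest to the controls. Krt13, the suprabasal keratin of the esophagus, was at 14.36, 13.95 and 14.19 in the controls against 13.84, 13.20 and 13.17 at week 29, -0.77 ± 0.19 (adjusted p = 0.0234). Krt15 and Sfn, squamous markers fixed beforehand with these keratins, were also called, at -0.56 and -1.47. Krt4 and Tp63, of the same set, were not called by limma, at -0.51 and -0.70 (adjusted p = 0.0664 and 0.0647). No member of the basal list was array-robust: 0, 6 and 1 were called lower without controls 1, 2 and 3, and 11, 1 and 0 without week 29 samples 1, 2 and 3.

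Transcription factors of squamous cells and the Notch pathway, which drives the exit from the basal layer, gave 7 members called lower and 2 higher of 27, with a median of -0.54. Notch1, the receptor, lay at 9.81, 10.11 and 9.99 in the controls and 9.38, 8.46 and 8.40 at week 29, -1.22 ± 0.26 (adjusted p = 0.0149). Nrarp, a target and feedback inhibitor of Notch, measured 8.44, 7.95 and 8.37 in the control samples and 7.88, 7.18 and 7.27 in the week 29 samples, -0.81 ± 0.18 (adjusted p = 0.0171). Among the factors, Grhl1, a grainyhead-like activator of desmosomal genes, was at 9.05, 9.37 and 9.37 in the controls against 8.51, 8.08 and 7.95 at week 29, -1.09 ± 0.22 (adjusted p = 0.013). Notch1 and Grhl1, like most genes called lower, did not overlap between groups, and in Notch1 samples 2 and 3 lay about 1 log2 unit below sample 1. Grhl3, Pitx1 and Tfap2c, other factors of surface epithelia, differed by -1.16, -1.06 and -0.71. The 2 higher calls, Heyl at 0.63 and Notch3 at 0.34, are a Notch target and a receptor known from vascular smooth muscle. The count of 7 lower was 2, 7 and 2 without controls 1, 2 and 3, and 13, 0 and 1 without week 29 samples 1, 2 and 3. Higher calls were lost without control 1, control 3, week 29 sample 2 or week 29 sample 3.

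No gene of the proliferation lists was called higher at week 29 than in the controls, and the 3 week 29 samples differed among themselves. In the DNA replication list 9 of 32 members were called lower and 0 higher (median -0.37), and in the mitosis list 3 of 34 were called lower and 0 higher (median -0.53), so the mitosis count is below the 10.8% of all genes called lower although 34 of 34 differences were negative. Mki67, the antigen of cycling cells, lay at 9.68, 9.68 and 9.35 in the controls and 9.46, 8.92 and 8.16 at week 29, a difference of -0.73 ± 0.28 (adjusted p = 0.0941), which was not called. Top2a, the topoisomerase that untangles DNA before division, measured 9.96, 10.01 and 9.61 in the control samples and 9.81, 9.33 and 8.56 in the week 29 samples, -0.63 ± 0.26 (adjusted p = 0.12), and was not called either. In both genes sample 1 was within the control range and sample 3 was the lowest of the 6 arrays. Cdc20, an activator of the anaphase-promoting complex, was at 9.22, 9.29 and 9.08 in the controls against 8.86, 8.69 and 7.82 at week 29, -0.74 ± 0.22 (adjusted p = 0.0446), and was called, as were Birc5 (survivin, difference -0.68) and Aurka (Aurora kinase A, -0.56). With the 6 compared arrays fitted alone none of these 3 was called. Mcm6, a subunit of the replicative helicase, lay at 7.34, 6.83 and 6.98 in the controls and 6.81, 6.08 and 5.33 at week 29, -0.98 ± 0.28 (adjusted p = 0.039). Mcm3 and Mcm2, of the same helicase, differed by -0.69 and -0.52. Ccne1, cyclin E1, which starts S phase, measured 6.72, 6.38 and 6.21 in the control samples and 6.11, 5.93 and 5.38 in the week 29 samples, -0.63 ± 0.17 (adjusted p = 0.0333), and Tyms, thymidylate synthase, differed by -0.56.

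The order of the single samples held across nearly the whole of both lists. All 34 mitosis genes were highest in week 29 sample 1 and lowest in sample 3, and the mitosis score was 8.06, 7.70 and 7.10 in samples 1, 2 and 3 against 8.21, 8.13 and 8.08 in controls 1, 2 and 3. In sample 1 14 of the 34 genes lay below every control, 18 within the control range and 2 above it; in sample 2 33 lay below every control, and in sample 3 34 did. The medians over genes, each taken from the control mean, were -0.07, -0.46 and -1.10. For DNA replication 31 of 32 genes were highest in sample 1 and 30 were lowest in sample 3, with medians of -0.09, -0.36 and -0.59. The range of the mitosis score over the 3 samples was 0.951, and it was 0.953 with array medians subtracted and 0.917 after quantile normalization. Without sample 1, 23 mitosis and 17 replication genes were called lower. Without sample 3 none were, nor without sample 2 or control 1. Without control 2 the counts were 0 and 4, and without control 3 they were 0 and 1. With the 6 compared arrays fitted alone, 0 mitosis and 3 replication genes were called lower. The muscle scores of the same samples, 11.526, 11.75 and 11.679, and their GAPDH values, 0.1256, 0.2147 and 0.1711, are given beside these scores; their part in the differences among the 3 samples was not tested.

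**Figure D3:**
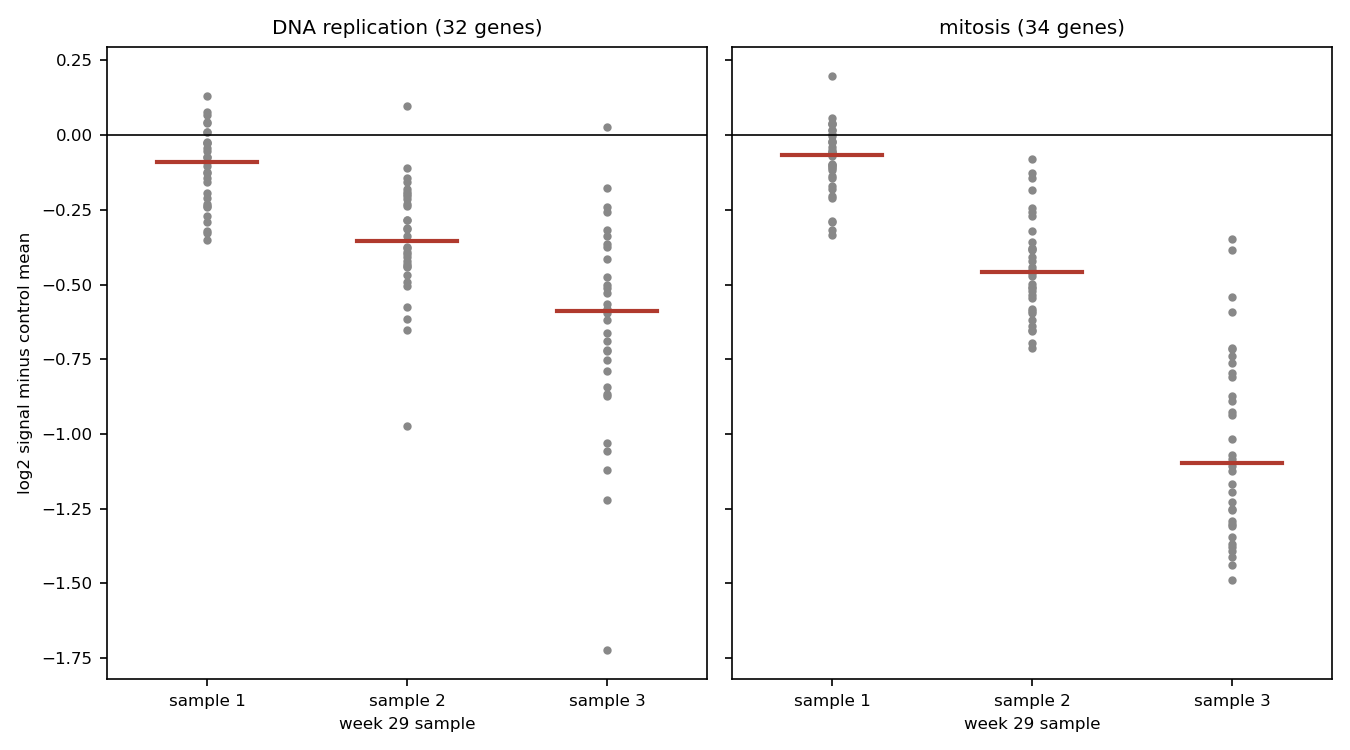
Log2 signal minus the control mean for each of the 32 DNA replication genes (left) and 34 mitosis genes (right) in week 29 samples 1, 2 and 3; each point is a gene, the red line is the median, and the line at 0 is the control mean. Points sit around 0 in sample 1 and move down in sample 2 and further down in sample 3.

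Among regulators of G1 and growth signalling a minority was called. Of 23 EGFR ligand, AP-1 and G1 cyclin genes 5 were called lower and 1 higher, against 10.8% and 8.44% of all genes, with a median of -0.25. Ccnd1, cyclin D1, which opens the G1 checkpoint, was at 10.88, 10.86 and 10.81 in the controls against 10.06, 9.93 and 9.48 at week 29, -1.03 ± 0.16 (adjusted p = 0.00753), and it was array-robust. Ccnd2, cyclin D2, lay at 9.91, 10.06 and 9.95 in the controls and 9.46, 8.50 and 8.32 at week 29, -1.22 ± 0.25 (adjusted p = 0.0137), with sample 1 apart from the other week 29 samples. The receptor gene Erbb2 measured 8.61, 8.10 and 8.18 in the control samples and 7.97, 7.64 and 7.37 in the week 29 samples, -0.64 ± 0.17 (adjusted p = 0.0284). Areg, amphiregulin, an EGFR ligand, differed by -0.72, and of the AP-1 subunits Junb differed by -0.75 and Jun by 0.49, the 1 higher call. Without controls 1, 2 and 3 the lower count was 1, 5 and 4, and without week 29 samples 1, 2 and 3 it was 7, 1 and 1. Jun was called in 1 of these 6 fits, and not by limma with the 6 compared arrays alone (adjusted p = 0.0721).

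Of the p53 target, CDK inhibitor and alkylation repair list, 3 of 22 genes were called lower and 1 higher (median -0.06). Over all genes the shares were 10.8% lower and 8.44% higher, so these counts do not set the list apart. Cdkn2a, which encodes p16 and p19Arf in rodents, was at 6.39, 6.04 and 6.58 in the controls against 5.32, 5.20 and 5.25 at week 29, -1.08 ± 0.15 (adjusted p = 0.00465). Plk2, a polo-like kinase that p53 induces, lay at 8.84, 8.30 and 8.72 in the controls and 7.78, 7.68 and 7.85 at week 29, -0.85 ± 0.13 (adjusted p = 0.00649). Both were array-robust, with groups that did not overlap, as in most genes called lower. Cdkn1a, p21, measured 10.58, 10.91 and 10.61 in the control samples and 10.72, 11.31 and 11.52 in the week 29 samples, 0.49 ± 0.20 (adjusted p = 0.119), and was not called, while the third lower call was Sesn2, a sestrin, at -0.76 and the called rise was that of Ccng1, cyclin G1, at 0.64 (adjusted p = 0.039). Ccng1 was not called without control 1, control 3, week 29 sample 2 or week 29 sample 3, and Sesn2 not without control 1, week 29 sample 2 or week 29 sample 3. Immediate early genes gave 4 of 20 lower and 1 higher, namely Ier2, Ier3, Dusp5 and Klf6 at -0.69, -0.70, -0.61 and -0.51, and the higher call was Ptp4a1 at 0.42, a phosphatase. Without controls 1, 2 and 3 the lower immediate early count was 2, 3 and 4, and without week 29 samples 1, 2 and 3 it was 3, 2 and 0. Dusp5 was called in none of these 6 fits.

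The type I interferon response list had 12 of 28 members called lower and 0 higher, and a median of -0.47. Slfn4, a schlafen of myeloid cells, was at 7.47, 8.48 and 8.92 in the controls against 5.99, 6.84 and 6.21 at week 29, -1.94 ± 0.39 (adjusted p = 0.0134). Mx1, a GTPase that blocks virus replication, lay at 5.67, 5.31 and 6.94 in the controls and 4.47, 4.68 and 4.73 at week 29, -1.35 ± 0.32 (adjusted p = 0.0198). Isg15, a ubiquitin-like modifier, measured 7.62, 7.70 and 8.95 in the control samples and 6.87, 7.05 and 7.22 in the week 29 samples, -1.04 ± 0.29 (adjusted p = 0.0352). In Mx1 and Isg15 control 3 was over 1 log2 unit above the other controls, and the week 29 values still lay below all of them. Irf7, the factor that amplifies the response, was at 7.86, 7.76 and 8.70 in the controls against 7.33, 7.40 and 7.28 at week 29, -0.77 ± 0.20 (adjusted p = 0.0267), and again control 3 was the highest. Bst2, tetherin, and Trim25, a ubiquitin ligase of the RIG-I pathway, differed by -0.81 and -0.96. Without controls 1, 2 and 3 the count was 6, 13 and 3, and without week 29 samples 1, 2 and 3 it was 10, 4 and 1, with Ifit2 the array-robust member. Adjusted for the GAPDH value it was 0.

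RefSeq promoters (GRCr8, 250 bases before to 50 after the start) were matched for 21 of the 28 interferon genes, and the letters GAAANNGAA, the core of the element that interferon-stimulated factors bind, were searched on both strands; matches may overlap each other. They were found in 13 of 21, or 61.9%, against 9.71% of all 33469 promoters, and in 4 of the 10 genes called lower that had a promoter and 9 of the 11 not called. A list gene counted if any of its promoters matched, while the share of all promoters counted single promoters, so these shares are not in the same unit. The windows of the 4 called genes are printed so that the element can be seen in members that fell; capitals mark the match, which for Irf7 is on the opposite strand, and a match is a description of letters, not a shown site. The windows are chr1:205800048-205800126 (minus strand) for Irf7, chr16:18255055-18255133 (minus) for Bst2, chr11:78408023-78408101 (plus) for Parp14, an ADP-ribosyltransferase, and chr1:205541759-205541837 (minus) for Ifitm3, a membrane protein that blocks virus entry. Their week 29 minus control differences were -0.77, -0.81, -0.45 and -0.56.
Irf7: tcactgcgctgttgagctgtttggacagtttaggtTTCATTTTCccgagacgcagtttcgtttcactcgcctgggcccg
Bst2: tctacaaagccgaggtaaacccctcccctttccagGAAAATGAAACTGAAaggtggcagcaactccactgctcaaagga
Parp14: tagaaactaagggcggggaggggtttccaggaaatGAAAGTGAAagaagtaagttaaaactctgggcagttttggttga
Ifitm3: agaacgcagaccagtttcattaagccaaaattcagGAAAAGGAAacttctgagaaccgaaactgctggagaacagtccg

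Interferon gamma targets and antigen processing genes were called lower in part. Of 20 members 10 were called lower and 0 higher, with a median of -0.53. Psmb9, an inducible subunit of the immunoproteasome, lay at 8.85, 8.65 and 8.99 in the controls and 7.37, 7.80 and 7.71 at week 29, -1.20 ± 0.14 (adjusted p = 0.00232). Psmb8, another such subunit, measured 8.40, 8.04 and 8.29 in the control samples and 7.03, 7.29 and 7.36 in the week 29 samples, -1.02 ± 0.13 (adjusted p = 0.00372). Cxcl9, a chemokine for activated T cells, was at 6.86, 6.53 and 6.71 in the controls against 5.65, 5.67 and 5.79 at week 29, -1.0 ± 0.16 (adjusted p = 0.0083). The groups did not overlap in any of the 3 genes, as in most genes called lower. Cxcl10, a related chemokine, differed by -1.35, and the guanylate-binding proteins Gbp2 and Gbp4 by -1.25 and -0.94. Cxcl9, Gbp4, Psmb8, Psmb9 and Tap1, the peptide transporter, were array-robust, and the count was 7, 10 and 6 without controls 1, 2 and 3, and 10, 8 and 5 without week 29 samples 1, 2 and 3. The constitutive proteasome, which shares the barrel with the immunoproteasome, gave 2 of 33 genes higher and 0 lower, below the 8.44% and 10.8% of all genes. The 2 were Psmb7 at 0.59 and Psmd1 at 0.45, neither of which was called without control 1, control 3, week 29 sample 2 or week 29 sample 3, and 1 of which was called without control 2.

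MHC class II and myeloid genes gave 11 of 31 members called lower and 0 higher, with a median of -0.35. Irf8, a transcription factor of dendritic cells and macrophages, had the lowest adjusted p of all 14217 genes: it lay at 8.51, 8.32 and 8.24 in the controls and 6.71, 6.62 and 6.44 at week 29, -1.77 ± 0.10 (adjusted p = 1.96e-05). RT1-Da, an alpha chain of rat MHC class II, measured 11.32, 10.42 and 10.48 in the control samples and 8.66, 9.09 and 8.65 in the week 29 samples, -1.94 ± 0.28 (adjusted p = 0.0058). Cd74, the invariant chain, was at 11.82, 10.90 and 10.84 in the controls against 9.41, 9.86 and 9.47 at week 29, -1.60 ± 0.27 (adjusted p = 0.00856). Itgax, CD11c, an integrin of dendritic cells, lay at 6.25, 6.31 and 6.06 in the controls and 4.86, 5.03 and 4.94 at week 29, -1.26 ± 0.15 (adjusted p = 0.00232). In these 4 genes, as in most genes called lower, every week 29 value was below every control. Control 1 was the highest for RT1-Da and Cd74. RT1-Db1 and RT1-Bb, beta chains of class II, differed by -1.82 and -1.57. RT1-Da, Itgax and Irf8 were array-robust, and the count was 6, 10 and 9 without controls 1, 2 and 3 and 10, 8 and 3 without week 29 samples 1, 2 and 3. The general leukocyte marker Ptprc differed by -0.03 (adjusted p = 0.919). Of the 13 mast cell genes, Hdc, histidine decarboxylase, and Cpa3, a mast cell carboxypeptidase, had the lowest p-values, and neither was called, with differences of 0.42 (adjusted p = 0.0544) and -0.40 (adjusted p = 0.189).

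In the lymphocyte list 3 of 24 members were called lower, near the 10.8% of all genes, and 0 higher. The median was -0.04, and a single week 29 sample stood apart. The called genes were GTPases of immunity-associated proteins: Gimap4 measured 8.33, 8.14 and 8.34 in the control samples and 7.38, 7.77 and 7.47 in the week 29 samples, -0.73 ± 0.11 (adjusted p = 0.00596), while Gimap5 differed by -0.67 and Gimap6 by -0.34. Gimap4 and Gimap5 were array-robust. Several T cell genes were high in week 29 sample 2 alone, which is given as a description, since the genes were named for their range. Cd3g, a chain of the T cell receptor complex, was at 7.0, 6.54 and 6.10 in the controls against 5.51, 7.61 and 5.95 at week 29. Cd8a, the coreceptor of cytotoxic T cells, lay at 4.97, 5.04 and 4.69 in the controls and 4.84, 6.57 and 4.67 at week 29. Tcf7, a T cell transcription factor, measured 7.15, 6.90 and 6.91 in the control samples and 6.36, 7.96 and 6.18 in the week 29 samples. Cd3e lay at 6.83, 6.52 and 6.45 in the controls and 6.20, 7.45 and 6.15 at week 29, and Lck, the kinase of that receptor, at 7.24, 6.84 and 6.78 and then 6.56, 7.78 and 6.29. Sample 2 was thus above every control for these 5 genes, and samples 1 and 3 were below the controls for Cd3e, Cd3g, Lck and Tcf7. Not every T cell gene followed: Cd2 lay at 5.80, 5.96 and 5.69 at week 29 and Cd4 at 5.78, 5.80 and 6.05. Of the 24 list members 16 were highest in sample 2, and 5 of them stood over 1 log2 unit above both other week 29 samples. Cd79b, of the B cell receptor, lay at 5.97, 5.97 and 5.89. Cd3e, Lck, Cd2, Cd4 and Cd79b were chosen after their values were seen, as were the list members outside the naming rule that are given in other paragraphs as the few calls of a list.

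**Figure D4:**
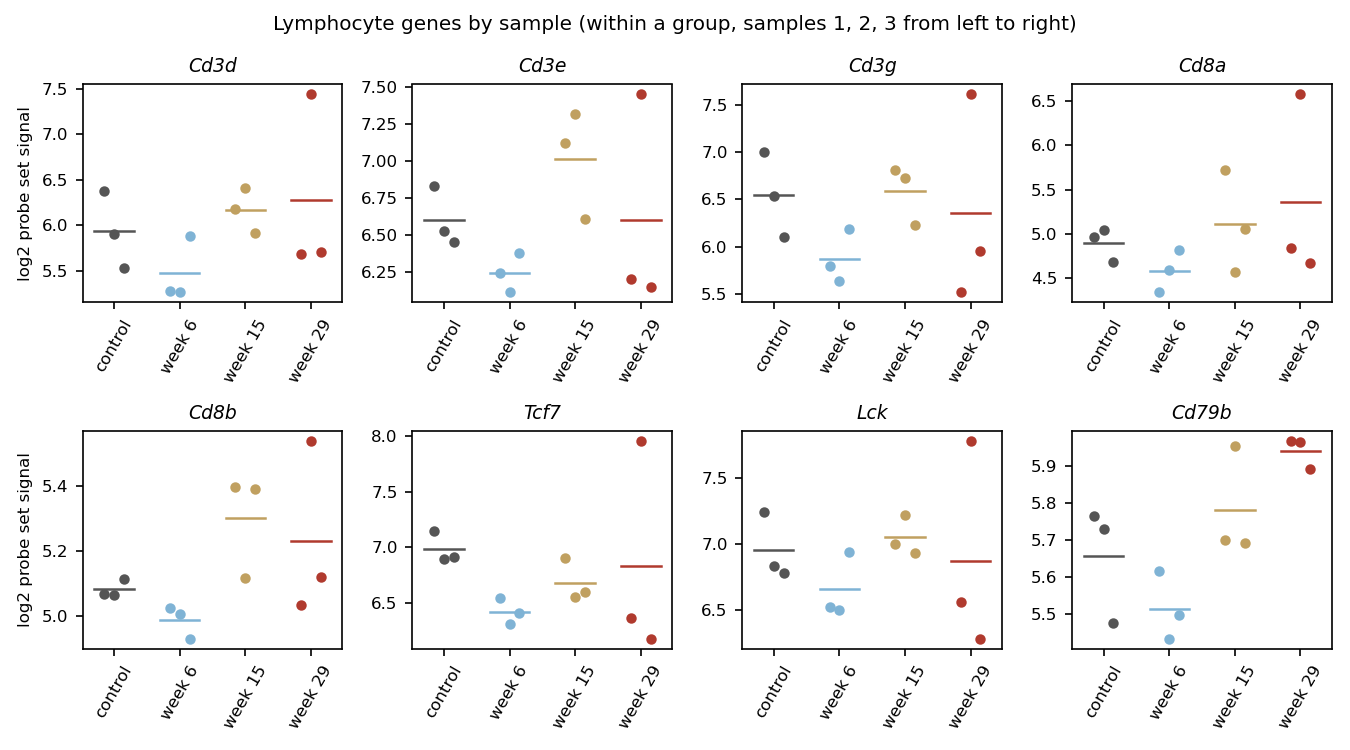
Log2 probe set signal of 8 lymphocyte genes in the 3 samples (points, samples 1 to 3 from left to right) and the mean (line) of each group. In week 29 the middle point, sample 2, is above all controls for the 7 T cell genes, while Cd79b has its 3 week 29 points close together.

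Of the endothelial genes 16 of 26 were called lower and 0 higher, with a median of -0.51. Plvap, a protein of fenestrated capillaries, was at 10.66, 10.43 and 10.42 in the controls against 9.35, 9.44 and 9.44 at week 29, -1.09 ± 0.11 (adjusted p = 0.00169). Clec14a, an endothelial lectin, lay at 6.37, 5.93 and 5.93 in the controls and 4.87, 4.86 and 5.14 at week 29, -1.12 ± 0.16 (adjusted p = 0.00546). Emcn, endomucin, of veins and capillaries, measured 9.65, 9.30 and 9.72 in the control samples and 8.52, 8.81 and 8.67 in the week 29 samples, -0.89 ± 0.14 (adjusted p = 0.00694). Groups did not overlap in any of the 3 genes, which was so for most genes called lower. Sox17, a transcription factor of arterial endothelium, Ptprb, a phosphatase, and Rasip1, a Ras-interacting protein of vessel lumens, differed by -0.75, -0.64 and -0.62. Plvap, Emcn, Clec14a and Rasip1 were array-robust, and the count of 16 was 6, 16 and 6 without controls 1, 2 and 3, 12, 9 and 4 without week 29 samples 1, 2 and 3, 13 in the fit adjusted for the muscle score and 1 in that adjusted for the GAPDH value. Within week 29, sample 1 was the lowest for 23 of the 26 genes.

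Fibroblast and matrix genes gave 8 of 32 called lower and 0 higher, with a median of -0.35. Tnc, tenascin C, a matrix glycoprotein of wounds and tumor stroma, was at 7.41, 7.35 and 7.40 in the controls against 5.90, 5.76 and 5.36 at week 29, -1.72 ± 0.25 (adjusted p = 0.00596), and was the array-robust member. Sparc, a matricellular protein, lay at 12.30, 11.60 and 12.11 in the controls and 10.99, 11.41 and 11.02 at week 29, -0.87 ± 0.18 (adjusted p = 0.0145). Ccn2, connective tissue growth factor, and the collagens Col1a2, Col5a2 and Col3a1 differed by -0.86, -0.84, -0.70 and -0.68. The fibroblast markers fixed beforehand, Col1a1, Dcn and Lum, differed by -0.30, 0.01 and 0.03. None of them was called (adjusted p = 0.46, 0.978 and 0.926). Sample 2 was the highest week 29 sample for 28 of the 32 genes. The count was 1, 14 and 1 without controls 1, 2 and 3, and 5, 4 and 1 without week 29 samples 1, 2 and 3.

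Smooth muscle genes gave 6 of 16 called lower and 1 higher, Lmod1, a leiomodin, at 0.94, with a median of -0.36. Actg2, enteric smooth muscle actin, measured 11.07, 10.48 and 11.92 in the control samples and 9.71, 8.63 and 9.56 in the week 29 samples, -1.86 ± 0.52 (adjusted p = 0.0343). Myh11, smooth muscle myosin, was at 12.26, 11.80 and 12.84 in the controls against 11.36, 10.46 and 11.08 at week 29, -1.33 ± 0.33 (adjusted p = 0.0237). In both, control 3 was the highest and week 29 sample 2 the lowest, and the groups did not overlap, as in most genes called lower. Tagln, Cnn1, Mylk and Csrp1, other contractile or cytoskeletal genes, differed by -1.51, -1.56, -1.39 and -1.05. None of the 6 was called without control 1, control 3, week 29 sample 2 or week 29 sample 3, and adjusted for the muscle score 1 gene of the list was called lower. No gene of the list was called higher without control 1, week 29 sample 2 or week 29 sample 3. Of 18 Schwann cell and neural genes 2 were lower, Ngfr at -0.70 and Nefh at -0.40, and 2 higher, Nefl at 0.76 and Snap25 at 0.60. Among metalloproteinase, plasminogen and VEGF genes, 2 of 22 were lower, Timp3 at -0.56 and Mmp14 at -0.44, and 1 was higher, Vegfb at 0.86. The counts of both lists were near or below the shares of all genes, 10.8% lower and 8.44% higher. Without week 29 sample 3 none of these 7 neural and vascular growth genes was called, and without control 1, control 3 or week 29 sample 2 just 1 was, a lower neural gene.

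The largest rises included genes known from striated muscle. Eef1a2, a translation factor of muscle and neurons, lay at 9.58, 10.40 and 9.66 in the controls and 11.15, 11.44 and 11.96 at week 29, 1.64 ± 0.36 (adjusted p = 0.0163). Ank1, an ankyrin, measured 7.92, 8.81 and 7.77 in the control samples and 9.49, 9.71 and 9.93 in the week 29 samples, 1.55 ± 0.42 (adjusted p = 0.0311). Mylk3, a myosin light chain kinase of the heart, was at 6.50, 7.24 and 6.59 in the controls against 8.06, 8.12 and 8.44 at week 29, 1.43 ± 0.34 (adjusted p = 0.0209). Control 2 was the highest control in these 3 genes, and the naming rule required every week 29 value to lie above the controls. Fbp2, the muscle fructose bisphosphatase, lay at 7.65, 8.31 and 7.86 in the controls and 8.90, 9.37 and 9.65 at week 29, 1.37 ± 0.26 (adjusted p = 0.0122). Plcd4, a phospholipase C, measured 7.05, 7.62 and 7.33 in the control samples and 8.30, 8.80 and 8.85 in the week 29 samples, 1.32 ± 0.23 (adjusted p = 0.00954). Sema4d, a semaphorin, was at 8.33, 8.80 and 8.47 in the controls against 9.47, 10.15 and 10.27 at week 29, 1.43 ± 0.32 (adjusted p = 0.018). The other named rises were Magix (1.39), Ppp1r1a, an inhibitor of protein phosphatase 1 (1.39), Irx3, a homeobox factor (1.35), P2rx6, a purinergic receptor (1.32), Rasd2, a small GTPase (1.31), Camk2a, a calmodulin-dependent kinase (1.30) and D430041D05Rikl (1.51). Magix and Plcd4 were called in 5 of the 6 fits that left out 1 array, Fbp2 in 4 and Ank1, Eef1a2, Mylk3 and Sema4d in 2. None of these genes was array-robust.

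In the muscle regulation and denervation list 7 of 18 members were called higher and 0 lower, with a median of 0.67. Mstn, myostatin, the brake on muscle growth, lay at 4.62, 5.55 and 4.23 in the controls and 6.24, 6.31 and 6.32 at week 29, 1.49 ± 0.29 (adjusted p = 0.0124). Chrna1, a subunit of the acetylcholine receptor, measured 8.33, 9.02 and 8.32 in the control samples and 9.32, 9.68 and 9.71 in the week 29 samples, 1.01 ± 0.30 (adjusted p = 0.0403). Its partner subunits Chrnb1 and Chrne differed by 1.03 and 0.67. Gadd45a, a stress gene of denervated muscle, was at 8.41, 9.05 and 8.59 in the controls against 9.56, 9.59 and 9.71 at week 29, 0.93 ± 0.17 (adjusted p = 0.0104), and Fbxo32, the ubiquitin ligase atrogin-1, differed by 0.78. The fast-twitch list gave 2 of 19 higher (Fbp2 and Phkg1, a phosphorylase kinase subunit, at 1.19) and the slow-twitch list 1 of 14 higher (Casq2, a calcium store protein, at 0.86) and 1 lower (Tpm3, a tropomyosin, at -0.98, which was array-robust). Both higher counts were near the 8.44% of all genes called higher. The fast-twitch count of 2 was 0, 2 and 1 without controls 1, 2 and 3, 5, 1 and 0 without week 29 samples 1, 2 and 3, 8 with the 6 arrays alone, 10 without the week 15 arrays and 8 with array weights. The slow-twitch higher count of 1 was 0, 1 and 0 without controls 1, 2 and 3, 0 without each week 29 sample in turn, 2 with the 6 arrays alone, 3 without the week 15 arrays and 2 with array weights. Adjusted for the muscle score 5 of the 18 regulation genes were called higher, and adjusted for the GAPDH value 0. Without controls 1, 2 and 3 the count was 1, 6 and 2, and without week 29 samples 1, 2 and 3 it was 6, 2 and 0. Myh4, fast myosin 2B, was among the genes with the widest range within week 29: it lay at 10.14, 11.45 and 11.74.

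In the adipocyte and triglyceride list 7 of 20 members were called higher and 0 lower, with a median of 0.47. G0s2, an inhibitor of triglyceride lipase, had the largest rise named: it lay at 8.23, 8.18 and 8.37 in the controls and 9.11, 10.17 and 10.98 at week 29, 1.83 ± 0.39 (adjusted p = 0.0155), and its week 29 values spread over nearly 2 log2 units. Plin5, a lipid droplet protein of oxidative tissue, measured 6.03, 6.64 and 6.50 in the control samples and 7.01, 7.50 and 7.96 in the week 29 samples, 1.10 ± 0.24 (adjusted p = 0.016). Ucp3, a mitochondrial carrier of muscle, was at 8.85, 9.49 and 9.22 in the controls against 9.81, 10.39 and 10.84 at week 29, 1.16 ± 0.30 (adjusted p = 0.0265). Plin4, Plin2 and Cd36, the fatty acid transporter, differed by 0.95, 0.87 and 0.80. The adipocyte markers themselves were dim and not called, Adipoq at 0.33 (adjusted p = 0.212) and Plin1 at 0.54 (adjusted p = 0.0524). Refitted without controls 1, 2 and 3 the list had 0, 10 and 2 higher calls, and 0, 2 and 0 lower; without week 29 samples 1, 2 and 3 it had 8, 0 and 0 higher.

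Respiratory chain subunits gave small differences, most of them not called. Of 74 subunits 11 were called higher and 2 lower, and 70 of 74 differences were above 0, with a median of 0.29. Over all genes 8.44% were called higher and 10.8% lower. Ndufs1, a complex I subunit, lay at 10.54, 10.90 and 10.39 in the controls and 11.15, 11.33 and 11.18 at week 29, 0.61 ± 0.17 (adjusted p = 0.0364). Uqcrc2, of complex III, differed by 0.45. Cox6a1, the non-muscle form of a complex IV subunit, measured 11.55, 11.03 and 11.26 in the control samples and 10.94, 10.79 and 10.58 in the week 29 samples, -0.51 ± 0.15 (adjusted p = 0.0407), and Cox8a, of the same complex, differed by -0.37 in the same direction. Without week 29 sample 1, in which 68 of the 74 were the lowest of the week 29 samples, 34 were called higher. None was called without control 1, control 3, sample 2 or sample 3, nor in the fits adjusted for the muscle score or the GAPDH value, while 33 were called higher without the week 15 arrays and 57 with array weights. Cytosolic ribosomal protein genes had differences below 0 in 42 of 42, with a median of -0.24, and 4 were called lower: Rpl3, Rpl13a, Rpl21 and Rpl18, at -0.51, -0.43, -0.39 and -0.38. That count was near the 10.8% of all genes called lower. Of the 42, 40 were highest among the week 29 samples in sample 1, and 18 were called lower without it and none without control 1, control 3, sample 2 or sample 3.

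Genes of sterol synthesis and uptake gave 10 of 19 called lower and 0 higher, with a median of -0.47. Sqle, squalene epoxidase, a rate-setting enzyme, was at 8.32, 7.79 and 8.32 in the controls against 7.38, 6.81 and 6.12 at week 29, -1.37 ± 0.32 (adjusted p = 0.0208). Cyp51, lanosterol demethylase, lay at 9.17, 9.05 and 8.85 in the controls and 8.33, 8.01 and 7.64 at week 29, -1.03 ± 0.17 (adjusted p = 0.00876), and was the array-robust member. The groups did not overlap in either gene, as in most genes called lower, and sample 3 was the lowest. Idi1, Ebp, Msmo1 and Lss, further enzymes of the pathway, differed by -0.91, -0.80, -0.79 and -0.60. The count was 1, 10 and 1 without controls 1, 2 and 3, and 10, 1 and 1 without week 29 samples 1, 2 and 3. The letters TCACCCCAC, a core of the sterol regulatory element, were searched on both strands in the RefSeq promoters matched to 15 genes of this list. They were found in 0 of these genes, against 0.484% of all promoters, each promoter counted singly. In fatty acid synthesis and elongation 6 of 16 genes were lower and 3 higher. Acsl5, an acyl-CoA synthetase, measured 10.55, 10.20 and 10.31 in the control samples and 9.83, 9.53 and 9.29 in the week 29 samples, -0.81 ± 0.14 (adjusted p = 0.00918), and was array-robust, whereas the 3 higher genes were its relatives Acsl4, Acsl1 and Acsl3, at 0.86, 0.62 and 0.47. Elovl5, Elovl1, Fasn and Scd2 differed by -0.90, -0.88, -0.89 and -0.79. Without controls 1, 2 and 3 the lower fatty acid count was 3, 6 and 3, and without week 29 samples 1, 2 and 3 it was 7, 3 and 1. In the same fits the higher count was 1, 3 and 0 and then 4, 0 and 0.

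Among NRF2 targets, glutathione and xenobiotic genes, 11 of 27 were called lower and 2 higher, Gsta1 at 0.60 and Aldh1a3 at 0.45, with a median of -0.41. Slc7a11, the cystine carrier that feeds glutathione synthesis, was at 8.90, 8.25 and 8.46 in the controls against 6.57, 5.90 and 5.48 at week 29, -2.55 ± 0.29 (adjusted p = 0.00232), and was array-robust. Gclm, the modifier subunit of glutamate-cysteine ligase, lay at 10.77, 9.85 and 10.07 in the controls and 9.59, 8.65 and 8.69 at week 29, -1.26 ± 0.31 (adjusted p = 0.0239). Nqo1, a quinone reductase, measured 12.11, 11.03 and 11.69 in the control samples and 11.24, 10.53 and 10.10 in the week 29 samples, -0.99 ± 0.31 (adjusted p = 0.0485), and week 29 sample 1 overlapped the controls. Gstm1, a glutathione transferase, Akr1b8, an aldo-keto reductase, and Gpx2, an epithelial glutathione peroxidase, differed by -1.17, -1.02 and -0.98. The lower count was 1, 13 and 3 without controls 1, 2 and 3, and 12, 2 and 1 without week 29 samples 1, 2 and 3. The higher count was 0 without control 1, control 3, week 29 sample 2 or week 29 sample 3. Of 20 glycolysis and hypoxia genes 7 were lower and 6 higher: Slc2a1, the glucose transporter GLUT1, was at 10.44, 9.94 and 10.11 in the controls against 9.63, 8.82 and 8.97 at week 29, -1.02 ± 0.22 (adjusted p = 0.0151). Pfkp, Pgam1 and Hif1a differed by -1.06, -0.82 and -0.76, Ddit4, an inhibitor of mTORC1 and array-robust, by -1.04, and Hk2, muscle hexokinase, by 0.84. For glycolysis and hypoxia the lower and higher counts were 1 and 0 without control 1, 3 and 1 without control 3, 1 and 0 without week 29 sample 2, and 1 and 0 without week 29 sample 3.

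Unfolded protein and heat shock genes gave 8 of 20 lower and 0 higher (median -0.10). Asns, asparagine synthetase, a target of ATF4, lay at 7.35, 6.78 and 6.96 in the controls and 6.34, 5.80 and 5.68 at week 29, -1.09 ± 0.18 (adjusted p = 0.0083), and was the array-robust member. Creld2, Dnajb1, Hsp90b1, Sdf2l1 and Hspa5, chaperones and their partners, differed by -0.81, -0.77, -0.60, -0.60 and -0.56. In the prostanoid and cytokine list 5 of 28 were lower and 1 higher, against 10.8% and 8.44% of all genes. Ptgs1, cyclooxygenase 1, measured 8.63, 8.12 and 8.72 in the control samples and 7.54, 7.31 and 7.33 in the week 29 samples, -1.09 ± 0.19 (adjusted p = 0.00954). Ptgs2, the inducible cyclooxygenase 2, was at 3.02, 3.11 and 3.09 in the controls against 3.07, 3.18 and 3.27 at week 29, near the lowest signals of the table, and its difference of 0.10 was not called (adjusted p = 0.507). Ccl2, a monocyte chemokine, Il18, an epithelial cytokine, Ptges, prostaglandin E synthase, and Cx3cl1 differed by -1.04, -0.84, -0.74 and -0.38, and Ptger1, a prostaglandin E receptor, by 0.63. In the circadian clock list Cry1 (0.74) and Tsc22d3, a glucocorticoid target (0.44), were the 2 higher calls of 18, against 8.44% of all genes. In the simple and glandular epithelium list Epcam (-0.90) was the 1 lower call of 14, against 10.8% of all genes. The lower counts for unfolded protein genes and for prostanoid and cytokine genes were 2 and 1 without control 1, 3 and 1 without control 3, 3 and 2 without week 29 sample 2, and 1 and 0 without week 29 sample 3. The clock calls were lost without each of those 4 arrays, and Tsc22d3 was called in none of the 6 fits that left out 1 array. The Epcam call was lost without any array but week 29 sample 1.

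A few of the large falls belonged to no list. Ocm, oncomodulin, a calcium-binding protein, lay at 8.68, 7.85 and 7.80 in the controls and 6.28, 4.97 and 5.25 at week 29, -2.61 ± 0.35 (adjusted p = 0.00465). Sdr16c5, a retinol dehydrogenase of epithelia, measured 8.35, 7.02 and 7.73 in the control samples and 6.19, 5.75 and 5.48 in the week 29 samples, -1.89 ± 0.30 (adjusted p = 0.00772). Both were array-robust. Lack of overlap between their groups was a condition for naming the largest falls. C18h5orf46 was at 9.26, 8.77 and 8.67 in the controls against 7.32, 6.75 and 6.54 at week 29, -2.03 ± 0.41 (adjusted p = 0.0133), and was called in 3 of the 6 fits that left out 1 array.

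Over all genes, 195 had a range over 1 log2 unit among the 3 week 29 samples, and the widest range was 3.1. Those named for their range, as a description with no test, held Bpifa1, a secreted protein of airway and glandular epithelium, at 5.43, 6.24 and 8.53 in samples 1, 2 and 3 and 5.91, 5.60 and 7.20 in the controls. Lypd8, a secreted protein of gut epithelium, lay at 5.48, 7.01 and 4.64 and at 4.80, 5.04 and 4.81. Sample 3 was thus high for Bpifa1 and sample 2 for Lypd8. Sample 1 was nearest to the controls for the mitosis, junction, basal, Notch, NRF2 and ribosomal lists and farthest for the endothelial and MHC class II lists, so no sample was the nearest for every list.

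**Figure D5:**
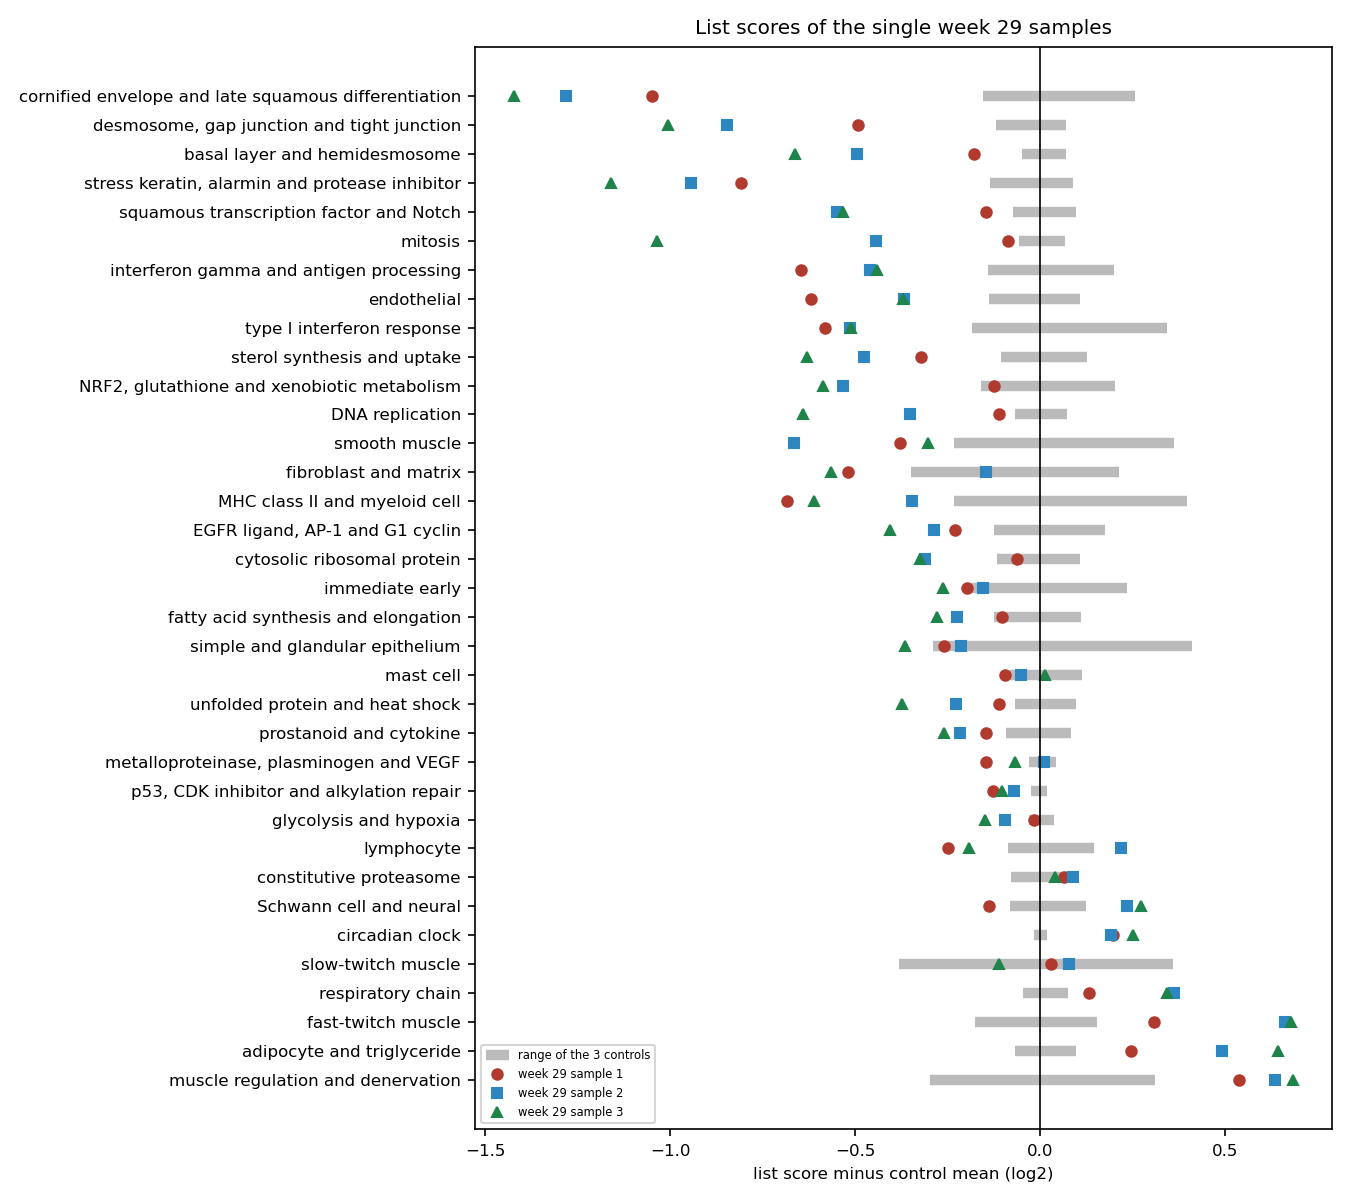
Mean log2 signal of each list in week 29 samples 1 (circle), 2 (square) and 3 (triangle) minus the control mean; the grey bar is the range of the 3 controls. All 3 symbols lie left of the bar for the cornified, junction and interferon gamma lists, while the mitosis symbols are spread from just outside the bar to about -1.

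Week 29 was also set against the other stages. Between week 29 and week 6, the first time point after dosing, 0 of 14217 genes (0%) were called by limma, with 3005 of 31042 probe sets at an unadjusted p under 0.05 and 363 probe sets called when arrays were weighted. The muscle score of week 6, 11.892 ± 0.104 (SD, n = 3), and its GAPDH value, 0.108 ± 0.0405, compare with 11.652 ± 0.115 and 0.17 ± 0.0446 at week 29. The week 29 minus week 6 differences of the leading genes were -1.60 for Stfa3, -1.39 for Sprr3, -1.74 for Slc7a11, -0.64 for Irf8 and 0.64 for G0s2, and none was called. Between week 29 and week 15, 6192 genes (43.6%) were called, 3002 higher and 3190 lower at week 29, with 5116 called when the 6 arrays were fitted alone. The muscle score of week 15 was 10.382 ± 0.695, below every other group, and its GAPDH value was 0.4 ± 0.193. These comparisons share the week 29 arrays with the comparison against control, so their values are set side by side and no overlap is drawn from them.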

How the data were processed

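RNA of rat esophagus was hybridised to 12 one-colour Affymetrix arrays, 3 each of control, NMBA week 6, week 15 and week 29. The values are log2 probe set signals deposited by the authors in 1 table, and, per the submitters' processing notes, Affymetrix Expression Console produced them. The sources used here state neither how probes were summarized nor how background was corrected. Of the probe sets, 20826 carried a single gene symbol in GEO's platform annotation, 436 carried several symbols and 9780 were not listed there; 20758 of the named ones were found in the RefSeq gene table. The number of arrays limits the precision.

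A linear model with the 4 groups was fitted over all 12 arrays by lmFit and eBayes of limma (version 3.58.1, R 4.3.3), which left 8 residual degrees of freedom. Benjamini-Hochberg adjustment ran over 31042 probe sets with no filter on dim signals, and calls were made where the adjusted p was under 0.05. Each gene was read from its brightest probe set; 8 genes had probe sets called in opposite directions. Lists were described by counts and medians and given no test. The fit was tested on simulated data. Members and lists were chosen with earlier results of these data known.

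Genes named were the 15 largest rises and 15 largest falls whose groups did not overlap, up to 6 called members of each list by size (2 as values where none was called), 8 fixed genes (Mki67, Top2a, Ptgs2, Krt13, Krt14, Cdkn1a, Slc7a11, Acta1), and the 10 genes with the widest range at week 29. Alternatives were the 6 arrays alone, no week 15 arrays, median or quantile scaling, a floor of 6 on mean signal, a 2-fold minimum, the muscle score or GAPDH value as a covariate, array weights, the mean of a gene's probe sets, a replicate block and leaving out each array. Deviations from the group mean could not decide whether the same replicate number pairs samples. Same-numbered control and week 29 arrays correlated at 0.176, 0.0768 and 0.044, and differently numbered ones at -0.224 to 0.18.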

Additional observations from a re-analysis of the deposited data

Results flagged for a closer look

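The test of week 29 against week 15, both after NMBA dosing, called 6192 of 14217 genes; week 15 was not tested against control here. The largest named differences, week 29 minus week 15, were -3.9 for Stfa3, -3.61 for Sprr3 and -3.6 for Sprr1b. In the other direction they were 2.89 for D430041D05Rikl, 2.77 for Ank1 and 2.62 for Ppp1r1a. The adjusted p-values from limma were 7.621e-05 for Stfa3, 0.0001098 for Sprr3 and 4.167e-05 for Sprr1b, and 0.0001918, 0.0003511 and 0.0004082 for the latter 3 genes. The week 15 arrays had a muscle score of 10.382 ± 0.695 (SD, n = 3) against 11.652 ± 0.115 at week 29, and the part of that gap in these differences was not tested.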

How the results depend on the processing

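The main fit called 4705 probe sets between week 29 and control. Refits called 2608 with the muscle score as a covariate, 132 with the GAPDH value, 468 at a 2-fold minimum and 9409 with array weights. Of these, 2523, 123, 468 and 4683 were among the 4705 in the same direction. With single arrays left out, between 274 and 6120 were called. The 206 list genes called lower became 69 at 2-fold, 27 with the GAPDH value, 312 with array weights and 34 to 249 with single arrays left out. Higher shares of called probe sets were 41.5% at 2-fold and 9.85% with the GAPDH value. Between week 29 and week 6, array weights gave 363 calls in place of 0. The replicate block gave 4556 probe sets and 203 list genes lower, and samples share a number only. Of the 183 named calls, 160 were lost with the GAPDH value, 100 at 2-fold, 59 with the muscle score and 34 with the 6 arrays alone. Losses were 152 without week 29 sample 3, 127 without control 1, 123 without week 29 sample 2 and 110 without control 3. They were 21 without control 2 and 14 without week 29 sample 1. No named call changed direction in the settings run, and the cause of the losses was not tested. The remaining settings moved the 4705 and the 206 by under 1.5 times. The 54 list genes called higher became 98 without the week 15 arrays, 29 with the muscle score, 8 at 2-fold, 0 with the GAPDH value, 146 with array weights and 0 to 86 with single arrays left out. Counts of single lists, a count of 0 being taken as 1, moved further: by over 1.5 times in 8 of 35 lists for lower calls and 5 for higher calls with the 6 arrays alone, in 1 and 6 without the week 15 arrays, in 4 and 3 with the floor of 6, in 3 and 3 with the replicate block, in 3 and 3 with the mean of a gene's probe sets, in 2 and 2 with medians subtracted and in 0 and 2 after quantile normalization. The 7 lower calls of the squamous factor and Notch list were 13 with that floor, 11 with the mean of probe sets and 16 with array weights. GAPDH values and muscle scores of week 29 lie wholly outside those of the controls, so a covariate shares its variation with the groups. Adjusted for the GAPDH value, list medians moved either way. The cornified median went from -1.17 to -1.54, and that of the MHC class II and myeloid list from -0.35 to -0.05.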

Other observations

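Among the 152 genes called in every fit that left out 1 array were several that belonged to no list, and these were chosen after their values were seen. All 6 array-robust rises of 2-fold or more were of this kind. Values are log2 signals of the 3 samples of each group, and differences are week 29 minus control ± SE with limma's adjusted p. Hbb, a beta chain of hemoglobin from red blood cells whose probe set may also read near-identical globin copies, lay at 9.55, 9.54 and 8.76 in the controls and 10.28, 10.57 and 10.63 at week 29, 1.21 ± 0.18 (adjusted p = 0.00688). Aldh1l1, an enzyme of folate metabolism, lay at 8.63, 8.90 and 8.75 and then 9.66, 10.02 and 10.14, 1.18 ± 0.16 (adjusted p = 0.00406). Scn4a, the sodium channel of skeletal muscle, Bmper, a secreted regulator of BMP signalling, Grtp1 and R3hdm2 differed by 1.05, 1.08, 1.10 and 1.18. No value of these 6 genes overlapped between the groups, as in 1188 of the 1200 genes called higher.

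Among the falls of this kind, Igfbp3, which binds insulin-like growth factors, lay at 9.49, 9.15 and 9.17 in the controls and 7.67, 8.19 and 7.70 at week 29, -1.42 ± 0.15 (adjusted p = 0.00201). Id1, a target of BMP signalling, lay at 9.87, 9.78 and 9.89 and then 8.71, 8.67 and 8.50, -1.22 ± 0.17 (adjusted p = 0.00465). Sele, E-selectin, an adhesion molecule of activated endothelium, and Sox7, an endothelial transcription factor, differed by -1.24 and -1.31. Mt2A, a metallothionein, Nfkbiz, a regulator of NF-kB targets, and Clec9a, a receptor of dendritic cells, differed by -1.24, -1.25 and -1.16. In each of these falls the groups did not overlap, as in 1475 of the 1537 genes called lower.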
